A study of Mus musculus with 6 samples.

Results

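Trafficking receptors steer T cells between blood, lymph nodes and inflamed tissue. The genes described here are 8 such receptors, chosen by symbol: Cxcr3, Cxcr4, Cxcr6, Ccr2, Ccr4, Ccr7, Ccr8 and S1pr1. All 8 were found among the 18288 genes of the deposited table, and all 8 passed the filter on low values, which left 13819 tested genes. They were followed in RNA sequencing of mouse CD8+ T cells, the cytotoxic T cells, that had been activated in culture and collected on day 2. There were 3 Nae1T-KO libraries and 3 Nae1WT libraries. Nae1 encodes a subunit of the enzyme that activates NEDD8, a ubiquitin-like protein attached to cullins and other targets. The labels do not give the deleted part of Nae1, the Cre driver, the stimulus used for activation, or the strain, age or sex of the mice. They number biological replicates without saying whether each came from its own mouse. The p-values therefore measure the scatter between these libraries, part of which may be technical.

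Chemokine receptors are seven-pass membrane proteins that couple mainly to inhibitory G proteins and turn a chemokine gradient into directed movement. S1PR1 does the same for sphingosine 1-phosphate, a lipid that is abundant in blood and lymph, and it lets T cells leave lymphoid organs. Naive T cells use CCR7 and S1PR1 to recirculate through lymph nodes. During activation they pass through a stage of low S1PR1, and effector cells gain receptors for inflamed tissue such as CXCR3 and CXCR6.

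Values are normalized counts, in which the reads of a gene are scaled by a factor for its library. Between 15630000 and 25440000 reads (rounded) were assigned to genes in each library. Nae1 itself was at 338 to 390 in Nae1T-KO and at 1601 to 1882 in Nae1WT, so every library went with its label. The 8 of 9 listed CD8 T cell markers used here summed to 28312 to 29793 in Nae1T-KO and to 31096 to 32942 in Nae1WT. Cd8a was at 6080 to 7654 in Nae1T-KO and at 7067 to 8186 in Nae1WT. Among these markers Cd3g was lower in Nae1T-KO (log2 fold change -0.51, limma adjusted p = 0.00365). Cd4 was at 20.1 to 118 in Nae1T-KO and 20.9 to 119 in Nae1WT. Of the 8 tested markers of CD4 and regulatory T cells, which include Cd4, limma called 1 higher, 0 lower and 7 neither. The call was Tnfrsf4 (log2 fold change 0.37, limma adjusted p = 0.0261). Over all tested genes 6.53% were called higher. Xist and the Y-linked gene Ddx3y split the libraries by sex, with Nae1T-KO replicates 1 and 2 and Nae1WT replicate 3 female (Xist at 14225 to 20518) and the other 3 male (Xist at 1.05 to 4.04), so each genotype included at least 2 mice.

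Of the 8 receptors, Cxcr3 fell in Nae1T-KO and the other 7 did not pass the test. This is 1 of 8 called at an adjusted p under 0.05 (limma, Benjamini-Hochberg over all tested genes), against 12.7% of all tested genes, so the share among the receptors was near the background. No receptor was called higher by limma, edgeR, DESeq2 or limma-voom. At an unadjusted p under 0.05, 0 were higher in limma and 1 in DESeq2. The groups did not overlap for Cxcr3 alone, again 1 of 8, where 33.7% of all tested genes had groups that did not overlap. The median log2 fold change of the 8 receptors was 0.31, and that of all tested genes was -0.01.

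**Figure D1:**
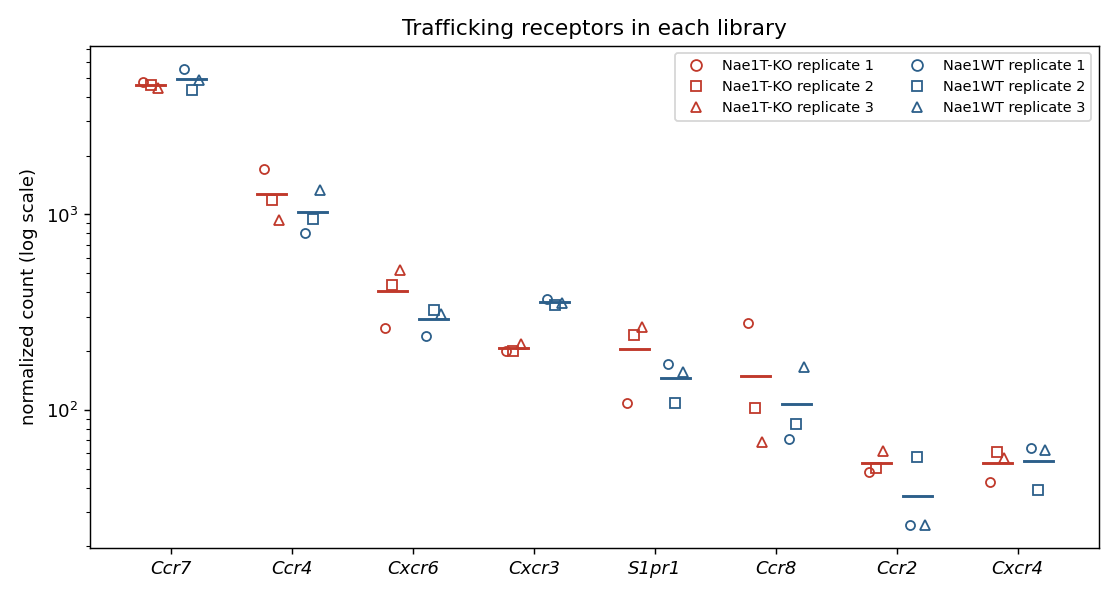
Normalized count (log axis) of each receptor in each of the 6 libraries, with Nae1T-KO in red at the left and Nae1WT in blue at the right of each pair, symbols for replicates and lines for group means. The Nae1T-KO libraries lie below the Nae1WT libraries without overlap for Cxcr3, at 200.04 to 218 against 344 to 371.

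Cxcr3 encodes the receptor for the interferon-induced chemokines CXCL9, CXCL10 and CXCL11, which draws effector T cells into inflamed tissue. It had normalized counts of 200.2, 200.04 and 218 across the Nae1T-KO replicates, versus 371, 344 and 353 across those of Nae1WT. Both groups were tight, and the highest Nae1T-KO library stayed well below the lowest Nae1WT library. The mean was 206 ± 10.4 in Nae1T-KO and 356 ± 13.7 in Nae1WT (SD, n = 3 each), with coefficients of variation of 5.04% in Nae1T-KO and 3.86% in Nae1WT. Nae1T-KO minus Nae1WT was -0.78 ± 0.10 on the log2 scale (SE, limma adjusted p = 0.00141), so Cxcr3 was 1.72-fold lower in Nae1T-KO with a 95% interval of 1.47 to 2.02. Nae1T-KO libraries held 179 to 227 Cxcr3 reads and Nae1WT libraries 302 to 463. In bulk RNA, fewer cells that express a receptor and less of its RNA per cell cannot be told apart.

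The Cxcr3 difference had the same sign in both sexes, although each sex has 1 library in one of the genotypes, Nae1WT among the females and Nae1T-KO among the males. Nae1T-KO minus Nae1WT was -0.81 on the log2 scale among the female libraries and -0.71 among the male ones, and with sex as a covariate it was -0.76 (limma adjusted p = 0.00317). Without any 1 of the libraries the log2 fold change stayed between -0.83 and -0.75 with an adjusted p of at most 0.00800. The call held in 18 of 19 alternative settings. It ended in a fit of 4 libraries paired by the number in the library names (-0.73, adjusted p = 0.0605, with 9.61e-07 to 0.0605 over the alternatives). Cxcr3 lies on the minus strand of chromosome X from 101731535 to 101734269 in GRCm38 (mm10, GENCODE M21). No other annotated gene overlapped its span, and none of its transcripts' 50-base stretches occurred in the annotated transcripts of another gene.

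Tbx21 encodes T-bet, a T-box transcription factor known to activate Cxcr3 in T cells. Its normalized counts were 1557, 1596 and 1435 across the Nae1T-KO replicates and 1616, 1707 and 1514 across those of Nae1WT, with overlapping groups. Tbx21 differed by -0.08 on the log2 scale (95% interval -0.24 to 0.09, limma adjusted p = 0.547). The Cxcr3 promoter is shown because this was the receptor that changed and because of its known link to T-bet. The sequence (RefSeq, GRCm38.p6, chrX:101734098-101734397, minus strand) runs 5′ to 3′ from 250 bases before to 50 after the RefSeq start of the gene, which lies inside the GENCODE span given above, with capitals at the match to the T-box half-site TCACAC searched on both strands.
Cxcr3 promoter: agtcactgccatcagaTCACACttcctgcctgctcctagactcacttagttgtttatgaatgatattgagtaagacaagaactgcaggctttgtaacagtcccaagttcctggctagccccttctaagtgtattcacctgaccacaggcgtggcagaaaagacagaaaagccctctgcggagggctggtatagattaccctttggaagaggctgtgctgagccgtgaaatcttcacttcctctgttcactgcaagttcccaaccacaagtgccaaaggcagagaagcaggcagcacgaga
These 6 letters occurred 1 time in this window, and they occur in 14.5% of the 32851 promoters of the same length. Of the 6 receptors with an entry, which leaves out Ccr7 and S1pr1, Cxcr3 was the one with a match. The other motifs searched on both strands each had 0 matches in this window. The core bound by KLF factors was searched as CACCC and is present in 57.5% of all promoters. For the GC box bound by SP factors the letters were GGGCGG, which 35.7% of all promoters hold. The TATA box, a core promoter element, was searched as TATAAA and is present in 13.6% of them. For the GAS element of STAT factors the letters were TTCNNNGAA, held by 8.30%. The antioxidant response element was searched as TGACNNNGC and is present in 12.4%. A match describes the letters and does not show a binding site.

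The genes whose levels followed Cxcr3 most closely over the 6 libraries were Fas, which encodes a death receptor, Ikzf5, which encodes an Ikaros-family zinc-finger protein, and Lypla1, which encodes an enzyme that removes palmitate from proteins. Their Pearson correlations with Cxcr3 were 0.997, 0.996 and 0.995 on log2(normalized count + 1). All 3 genes share with Cxcr3 the split of the 6 libraries by genotype, and the values are a description. Fas averaged 429 ± 6.57 in Nae1T-KO and 632 ± 28.5 in Nae1WT (SD, n = 3 each), a log2 fold change of -0.56. That of Ikzf5 was -0.52 and that of Lypla1 was -0.47.

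**Figure D2:**
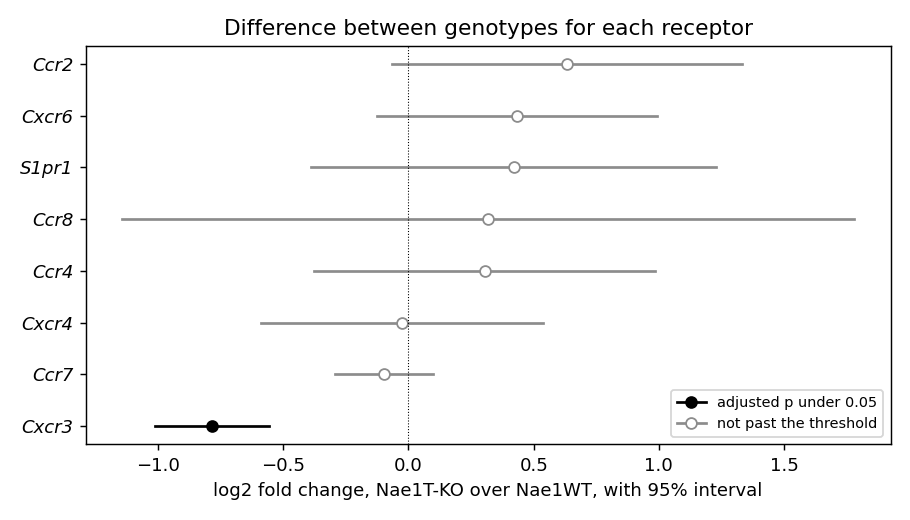
Log2 fold change of each receptor, Nae1T-KO over Nae1WT, with its 95% interval from limma. The interval of Cxcr3, -1.01 to -0.56, lies below 0, and the intervals of the other 7 receptors include 0, with Ccr7 the narrowest (-0.30 to 0.10) and Ccr8 the widest (-1.14 to 1.78).

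Ccr7, the receptor that brings T cells into lymph nodes along CCL19 and CCL21, was the most abundant of the 8 and did not pass the test. It had normalized counts of 4759, 4582 and 4430 across the Nae1T-KO replicates, versus 5572, 4336 and 4905 across those of Nae1WT. The Nae1T-KO libraries lay inside the range of the Nae1WT libraries. Ccr7 differed by -0.10 on the log2 scale (95% interval -0.30 to 0.10, limma adjusted p = 0.508). This interval leaves room for a level up to 1.23-fold lower or 1.07-fold higher in Nae1T-KO. Ccr7 lies on the minus strand of chromosome 11 from 99144196 to 99155077.

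S1pr1, the egress receptor, varied more within Nae1T-KO than between the genotypes. Its normalized counts were 108, 242 and 267 across the Nae1T-KO replicates, versus 171, 109 and 157 across those of Nae1WT. Replicates 2 and 3 of Nae1T-KO were above every Nae1WT library, and replicate 1 was level with the lowest of them, Nae1WT replicate 2. The log2 fold change over all libraries was 0.42 (95% interval -0.39 to 1.23, limma adjusted p = 0.474). Without Nae1T-KO replicate 1 it was 0.83 and passed the test (adjusted p = 0.0338, with 0.0338 to 0.785 over the alternatives). S1pr1 lies on the minus strand of chromosome 3 from 115710433 to 115715072.

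Cxcr6, the receptor for CXCL16 that marks effector and tissue-resident T cells, was also lowest among the Nae1T-KO libraries in replicate 1. It had normalized counts of 262, 435 and 518 across the Nae1T-KO replicates, versus 238, 325 and 308 across those of Nae1WT. Again replicates 2 and 3 of Nae1T-KO were above every Nae1WT library, while replicate 1 lay among them. The log2 fold change was 0.43 (95% interval -0.13 to 0.99, limma adjusted p = 0.281), and without Nae1T-KO replicate 1 it was 0.72 (adjusted p = 0.0226, with 0.0226 to 0.747 over the alternatives). Cxcr6 lies on the plus strand of chromosome 9 from 123806475 to 123811760, inside the span of Fyco1 on the opposite strand, and shares 0 exonic bases with it.

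Klf2, which encodes a transcription factor known to drive S1pr1, was lowest in that library too. It had normalized counts of 51.4, 133 and 168 across the Nae1T-KO replicates, versus 98.2, 88.9 and 65.5 across those of Nae1WT. Its log2 fold change was 0.33 (limma adjusted p = 0.641). It was 0.84 without Nae1T-KO replicate 1 (adjusted p = 0.0436) and -0.00251 without Nae1T-KO replicate 3, with adjusted p = 0.0436 to 0.998 over the alternatives. Without Nae1T-KO replicate 1 the 8 receptors had 3 calls, Cxcr3 lower and Cxcr6 and S1pr1 higher. The same refit called 1295 of all 13819 tested genes, 633 higher and 662 lower.

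Ccr4 and Ccr8, the receptors for CCL17 and CCL22 and for CCL1, are best known from type 2 helper and regulatory T cells. Ccr4 had normalized counts of 1704, 1188 and 941 across the Nae1T-KO replicates, versus 801, 951 and 1328 across those of Nae1WT. Ccr8 had 277, 102 and 68.7 across the Nae1T-KO replicates, versus 71.2, 84.7 and 166 across those of Nae1WT. Both were highest in Nae1T-KO replicate 1 and next in Nae1WT replicate 3, and the groups overlapped for both. The log2 fold change of Ccr4 was 0.30 (95% interval -0.38 to 0.99, limma adjusted p = 0.528). That of Ccr8 was 0.32 (95% interval -1.14 to 1.78, limma adjusted p = 0.775), and its sign changed without Nae1T-KO replicate 1 (-0.253). The ratio of the highest to the lowest Nae1T-KO library was 4.04 for Ccr8, the largest of the 8 receptors, and 1.81 for Ccr4.

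These levels went with other features of the libraries. The 3 female libraries held the 3 highest values of both genes, 1188 to 1704 against 801 to 951 in the male libraries for Ccr4 and 102 to 277 against 68.7 to 84.7 for Ccr8. In the fit with sex as a covariate the sex term, female minus male, was 0.60 for Ccr4 (limma adjusted p = 0.367) and 1.18 for Ccr8 (adjusted p = 0.590), and neither passed. With that term the genotype difference was 0.10 for Ccr4 and -0.0767 for Ccr8. The 7 markers of type 2 cytokine-producing T cells summed to normalized counts of 1504, 1006 and 788 across the Nae1T-KO replicates, versus 462, 782 and 898 across those of Nae1WT. Of the 6 tested markers of this list limma, edgeR and limma-voom called 0 and DESeq2 called 1 higher. Over all 13819 tested genes limma called 6.53% higher and DESeq2 called 1035 genes higher. At an unadjusted p under 0.05, 3 of the markers were higher in limma. The share of all tested genes at that unadjusted threshold was not counted. The 8 markers of CD4 and regulatory T cells summed to 21826, 17524 and 15584 across the Nae1T-KO replicates, versus 16906, 15258 and 17097 across those of Nae1WT. The part of either kind of cell in the Ccr4 and Ccr8 levels was not tested. Ccr4 lies on the minus strand of chromosome 9 from 114490316 to 114504916 and Ccr8 on the plus strand of the same chromosome from 120092114 to 120094906.

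**Figure D3:**
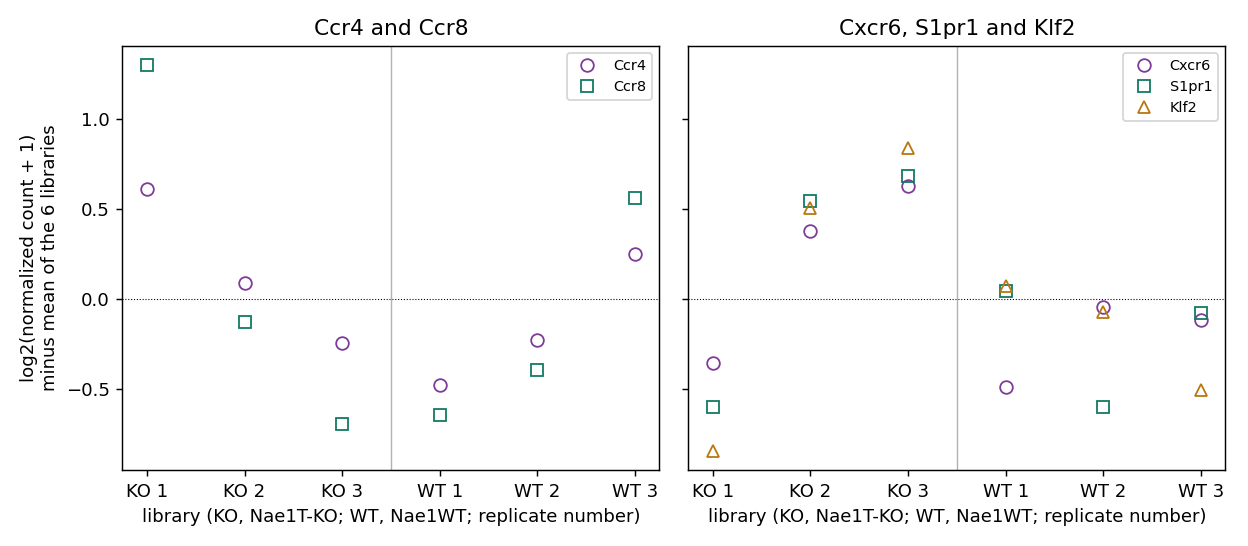
Log2(normalized count + 1) of each gene in each library minus its mean over the 6 libraries, with Ccr4 and Ccr8 in one panel and Cxcr6, S1pr1 and Klf2 in the other. Nae1T-KO replicate 1 is highest for Ccr4 and Ccr8 (1704 and 277 normalized counts) and is the lowest of its group for Cxcr6, S1pr1 and Klf2 (262, 108 and 51.4).

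Ccr2 and Cxcr4 were measured on few reads. Ccr2, the receptor for CCL2 that is best known from monocytes and is also used by effector T cells, had normalized counts of 48.1, 50.2 and 61.6 across the Nae1T-KO replicates, versus 25.8, 57.5 and 25.9 across those of Nae1WT. Nae1WT replicate 2 lay among the Nae1T-KO libraries and the other 2 Nae1WT libraries lay below them. Ccr2 differed by 0.63 on the log2 scale (95% interval -0.07 to 1.33, limma adjusted p = 0.213), from 21 to 61 reads per library. Without Nae1WT replicate 2 it was 1.01 and still short of the threshold (adjusted p = 0.0520, with 0.0520 to 0.612 over the alternatives). Markers of myeloid and dendritic cells, which also express Ccr2, summed to normalized counts of 155, 256 and 192 across the Nae1T-KO replicates, versus 106, 73.2 and 92.1 across those of Nae1WT, over the 9 of 15 listed markers used here. Itgam and Itgax were at 0 in Nae1WT replicate 2, and Cd14 and Flt3 were at 0 in Nae1WT replicate 1. Itgam was at 11.2, 9.69 and 11.1 across the Nae1T-KO replicates and 2.46, 0 and 4.57 across those of Nae1WT. For Itgax the groups overlapped, at 16.8, 15.9 and 3.03 across the Nae1T-KO replicates and 7.37, 0 and 7.61 across those of Nae1WT. Neither gene passed the filter on low values. The part of such cells in the Ccr2 level was not tested.

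Of the 50-base stretches of Ccr2 transcripts, 1.91% occurred in annotated transcripts of other genes, so reads from there cannot be assigned by sequence alone. For Ccr4 the share was 0.465%, and for the other 6 receptors it was 0. Ccr2 lies on the plus strand of chromosome 9 from 124101950 to 124113557.

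Cxcr4, the receptor for CXCL12, which holds cells in bone marrow and lymphoid tissue, had normalized counts of 42.5, 60.8 and 56.5 across the Nae1T-KO replicates, versus 63.8, 38.7 and 62.4 across those of Nae1WT. The groups overlapped and each held 1 low library. Cxcr4 differed by -0.03 on the log2 scale (95% interval -0.59 to 0.54, limma adjusted p = 0.961), from 37 to 82 reads per library, so a level up to 1.503-fold lower or 1.45-fold higher in Nae1T-KO lies within the interval. The sign changed without Nae1T-KO replicate 1 (0.126), Nae1WT replicate 1 (0.0977) or Nae1WT replicate 3 (0.0818), and under scaling to total counts (0.0207). Cxcr4 lies on the minus strand of chromosome 1 from 128588199 to 128592293.

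**Figure D4:**
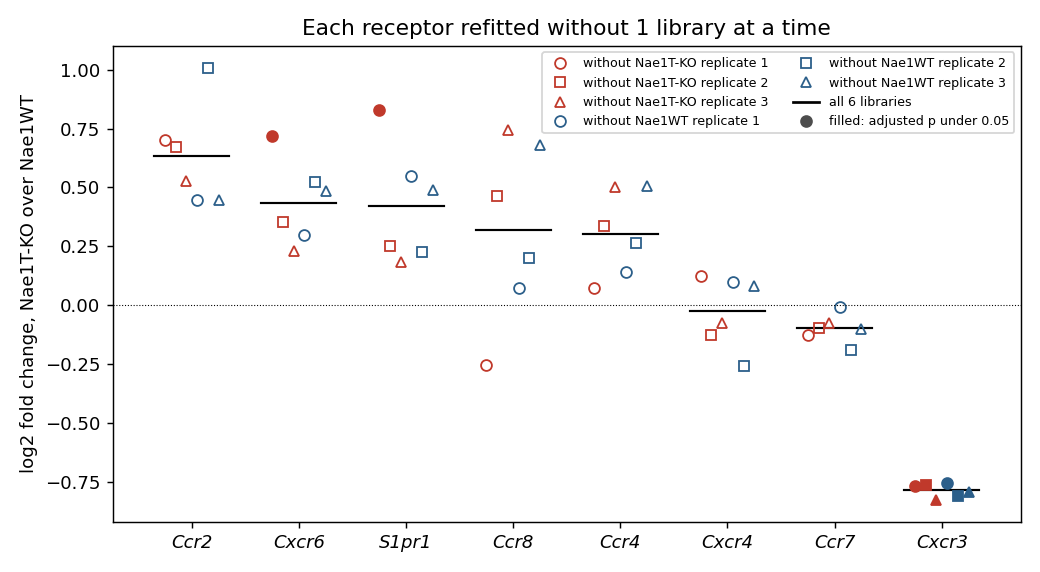
Log2 fold change of each receptor, Nae1T-KO over Nae1WT, refitted without 1 library at a time (symbols), beside the value from all 6 libraries (lines). Cxcr3 stays between -0.83 and -0.75 and past the threshold in all 6 refits, Cxcr6 (0.72) and S1pr1 (0.83) pass without Nae1T-KO replicate 1, and no other refit of the remaining receptors passes.

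Compared per length, in RPKM (reads per kilobase of GENCODE exon, scaled to library depth), the receptors covered a wide range of levels. In Nae1T-KO the means ran from Ccr7 at 123 ± 5.43 through Ccr4 at 21.9 ± 6.61, Cxcr6 at 11.1 ± 3.58, Ccr8 at 6.74 ± 4.99, Cxcr3 at 6.32 ± 0.25, S1pr1 at 3.59 ± 1.49 and Cxcr4 at 1.57 ± 0.30 to Ccr2 at 0.418 ± 0.05 (SD, n = 3). In Nae1WT they ran from Ccr7 at 128 ± 18.2 through Ccr4 at 17.05 ± 4.54, Cxcr3 at 10.6 ± 0.58, Cxcr6 at 7.72 ± 1.12, Ccr8 at 4.69 ± 2.26, S1pr1 at 2.46 ± 0.59 and Cxcr4 at 1.57 ± 0.42 to Ccr2 at 0.275 ± 0.13 (SD, n = 3). In Nae1T-KO the range of Ccr8 (3.05 to 12.4) overlapped those of Cxcr6, Cxcr3 and S1pr1 (S1pr1 at 1.87 to 4.57). In Nae1WT Cxcr6 and Ccr8 overlapped, as did S1pr1 and Cxcr4. Cxcr3 and Cxcr6 changed places. Cxcr3 lay at 6.08 to 6.58 and Cxcr6 at 7.13 to 14.0 in Nae1T-KO, while Cxcr3 lay at 10.01 to 11.2 and Cxcr6 at 6.43 to 8.48 in Nae1WT, with no overlap of the pair in either genotype.

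Of 28 other listed receptors, 10 were tested, and limma called 2 higher, 1 lower and 7 neither, with a median log2 fold change of 0.04. These are 3 of 10 called, against 12.7% of all tested genes, of which 6.53% were higher and 6.18% lower. Of the 2 higher, Xcr1 passed the filter on low values only through the Nae1T-KO libraries, where it was higher. Cxcr5, the follicle-homing receptor for CXCL13, fell to normalized counts of 26.8, 61.7 and 22.2 across the Nae1T-KO replicates, versus 90.9, 76.3 and 114 across those of Nae1WT, -1.45 ± 0.35 on the log2 scale (SE, adjusted p = 0.0250). B cells also express Cxcr5, and the 10 B cell markers used here summed to 219, 623 and 294 across the Nae1T-KO replicates and 250.5, 241 and 372 across those of Nae1WT. The sum was highest in Nae1T-KO replicate 2, the Nae1T-KO library with the most Cxcr5. Nae1WT replicates 1 and 2 had more Cxcr5 than that library, at sums of 250.5 and 241. The part of B cells was not tested. The call for Cxcr5 ended without any of the libraries other than Nae1T-KO replicate 2 (adjusted p = 0.0515 to 0.0810), with 0.00305 to 0.0810 over the alternatives.

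Ptger2, which encodes a prostaglandin E2 receptor, rose to 472 ± 23.2 normalized counts in Nae1T-KO, against 339 ± 54.5 in Nae1WT (SD, n = 3 each), a log2 fold change of 0.49 (limma adjusted p = 0.0260). This call ended without Nae1T-KO replicate 2 or 3 or Nae1WT replicate 1 or 3 (adjusted p = 0.0563 to 0.0932, with 0.00810 to 0.221 over the alternatives). The other higher call in limma was Xcr1, a marker of a dendritic cell subset named after its values were seen, at 1.75 (adjusted p = 0.0350). Its normalized counts were 10.1, 17.6 and 15.1 across the Nae1T-KO replicates, versus 4.91, 2.09 and 3.81 across those of Nae1WT. Xcr1 thus entered the test through the Nae1T-KO libraries alone. DESeq2 called 1 gene of this list higher, Ptger2 (adjusted p = 0.00810). Other receptors for sphingosine 1-phosphate, also named after their values were seen, did not pass: S1pr2 had 0.39 (adjusted p = 0.177) and S1pr4 had -0.01 (adjusted p = 0.982).

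Genes of the selectin pathway, which lets T cells roll on vessel walls, had 10 tested members. Limma called 1 higher, 2 lower and 7 neither, against 6.53% higher and 6.18% lower over all tested genes. Selplg, which encodes the selectin ligand PSGL-1, fell by 0.30 on the log2 scale (adjusted p = 0.0437). Fut7, the fucosyltransferase that decorates selectin ligands, fell to normalized counts of 49.2, 53.8 and 41.4 across the Nae1T-KO replicates, versus 84.7, 80.5 and 83.0 across those of Nae1WT, a log2 fold change of -0.78 (adjusted p = 0.0235). These calls lay close to the threshold. Selplg lost its call without any 1 library other than Nae1T-KO replicate 1 (adjusted p = 0.0657 to 0.131) and under total-count scaling (0.0998), with 0.0175 to 0.327 over the alternatives. Fut7 lost it without Nae1T-KO replicate 3 or any Nae1WT replicate (0.0524 to 0.0722, with 0.0225 to 0.198 over the alternatives).

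Among ligands of the receptors, 6 were tested and 2 were higher, both ligands of CXCR3, against 6.53% of all tested genes. Limma, edgeR and limma-voom called 2 higher and DESeq2 3, and each called 0 lower, with 0 lower also at an unadjusted p under 0.05. Cxcl10 had normalized counts of 273, 352 and 333 across the Nae1T-KO replicates, versus 34.4, 32.4 and 51.8 across those of Nae1WT, a level 8.03-fold higher in Nae1T-KO (limma adjusted p = 3.58e-05). Cxcl9, named after its values were seen, had 53.7, 38.8 and 35.3 across the Nae1T-KO replicates, versus 8.59, 6.27 and 10.7 across those of Nae1WT (log2 fold change 2.20, limma adjusted p = 0.00248). Neither ligand overlapped between the genotypes, as Cxcr3 did not, with the ligands higher and the receptor lower in Nae1T-KO. Myeloid and dendritic cells also make these ligands, and the markers of those cells summed to 155 to 256 in Nae1T-KO and 73.2 to 106 in Nae1WT, as given above. Their part was not tested.

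Sgpl1, the lyase that breaks down sphingosine 1-phosphate, was the 1 gene called of 7 tested in the metabolism and transport of this lipid, at a log2 fold change of 0.39 (limma adjusted p = 0.0192). The count of 1 in 7 is near the 12.7% called over all tested genes. The normalized count of Sgpl1 averaged 769 ± 60.2 in Nae1T-KO and 585 ± 39.0 in Nae1WT (SD, n = 3 each). The call ended without Nae1T-KO replicate 2, Nae1WT replicate 2 or Nae1WT replicate 3 (adjusted p = 0.0702 to 0.0777, with 0.00497 to 0.173 over the alternatives). No gene of this list was called lower by limma, edgeR, DESeq2 or limma-voom, and 0 were lower at an unadjusted p under 0.05.

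Of 26 transcription factors linked to homing receptors or T cell states, 3 were higher, 1 was lower and 22 did not pass (limma), a share near the 12.7% of all tested genes. Prdm1, which encodes the effector factor BLIMP-1, rose to 60.8 ± 6.88 normalized counts in Nae1T-KO, against 12.5 ± 8.42 in Nae1WT (SD, n = 3 each), a log2 fold change of 2.36 (adjusted p = 0.00490). Satb1, a chromatin organizer, rose to 9415 ± 839 in Nae1T-KO, against 4798 ± 1063 in Nae1WT (log2 fold change 0.99, adjusted p = 0.00387). Klf3, a relative of Klf2 named after its values were seen, had 0.67 (adjusted p = 0.00494). Eomes, a T-box factor related to T-bet, fell to 899, 788 and 687 across the Nae1T-KO replicates, versus 1390, 1291 and 1632 across those of Nae1WT (log2 fold change -0.86, adjusted p = 0.00159). DESeq2 on the recovered reads called 7 of this list higher and 1 lower. Over all 13819 tested genes it called 1035 higher and 1012 lower.

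Genes that damp receptor signalling had 16 tested members, of which limma called 4 higher, 0 lower and 12 neither, against 6.53% higher and 6.18% lower over all tested genes. At an unadjusted p under 0.05 limma had 1 lower, and DESeq2 called 1 lower, edgeR and limma-voom 0. Cd69, whose product binds S1PR1 and takes it off the surface, rose to normalized counts of 3974, 4523 and 5250 across the Nae1T-KO replicates, versus 3362, 3435 and 3115 across those of Nae1WT (log2 fold change 0.46, limma adjusted p = 0.0125). Without Nae1WT replicate 3 the call was lost (adjusted p = 0.0541, and 0.000214 to 0.144 over the alternatives). The G protein regulators Rgs2 and Rgs10, which speed the shutdown of G protein signals, rose by log2 fold changes of 0.93 (adjusted p = 0.000374) and 0.86 (adjusted p = 0.00208). The fourth was the receptor kinase gene Grk6, named after its values were seen, at 0.24 (adjusted p = 0.0404). Rgs1, also named after its values were seen, went the other way at -0.34 without passing (limma adjusted p = 0.0606).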

How the data were processed

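Per the submitters' processing notes, bcl2fastq, HISAT2, DESeq2 1.42.0 and build mm10 were used. How reads were counted, with which annotation and strand setting, is not given in the sources used here. The deposited file holds normalized counts, a signal whose unit the labels do not name. Dividing each library by its smallest step gave whole reads for 100% of values (tolerance 0.001 of a read), and from these the depths. The step of Nae1T-KO replicate 3 is near 1, which makes its reads less sure. Genes with a normalized count of at least 10 in at least 3 libraries entered limma 3.58.1 (R 4.3.3; trend, robust, two-sided, Benjamini-Hochberg) as log2(normalized count + 1). Fold changes on this scale understate the change of low genes. The fit was checked on simulated counts. Alternatives were limma-voom, edgeR 4.0.16 and DESeq2 1.42.0 fitted to the reads, other scalings, filters and pseudocounts, sex, replicate blocks and left-out libraries. The interaction of genotype with sex was added after seeing the data.

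The receptors and gene lists were chosen with earlier results of these data known. Named genes are the 8 receptors, Nae1, Klf2, Cd69, Tbx21, up to 3 called genes per list with the largest change at a group mean of at least 50 normalized counts, and the 3 genes most correlated with each called receptor. Predicted genes were left out of the last group. Some genes that this rule names are not reported here. Lists are described by counts and medians, with no test. Coordinates and exon lengths are GENCODE M21 (GRCm38). Counting error is not the only error of read counts, which carry no molecular identifiers.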

Additional observations from a re-analysis of the deposited data

How the results depend on the processing

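Over all tested genes limma called 1757 and, of the receptors, 1. Leaving out 1 library each gave 844 to 1790 genes and 1 to 3 receptors, with 844 without Nae1WT replicate 2, 954 without Nae1WT replicate 3 and 1034 without Nae1T-KO replicate 2. The titles give both groups replicates 1 to 3. Same-numbered libraries deviated from their group means with correlations of -0.13, -0.18 and -0.27. Each of these pairs joins a female and a male library, so the correlations cannot decide whether the replicate numbers pair libraries. With that replicate block 968 genes and 1 receptor were called, and Cxcr5 (adjusted p = 0.0518), Ptger2 (0.0537), Sgpl1 (0.0610), Fut7 (0.0647) and Selplg (0.0657) passed the threshold no longer. With the replicate block by library number on 4 libraries 253 genes and 0 receptors were called (limma, 1 at an unadjusted p under 0.05), with Cxcr3 at 0.0605. The calls of Cd69, Eomes, Fas, Fut7, Gng2, Ikzf5, Lypla1, Prdm1, Ptger2, Rgs10, Satb1, Selplg, Sgpl1 and Stk17b ended there too (adjusted p = 0.0518 to 0.327). Scaling to total counts gave 1176 higher and 621 lower genes, against 903 and 854. It moved the median of all tested genes to 0.04. Signs changed for Ccr8 without Nae1T-KO replicate 1 (-0.253, up to 0.746 without Nae1T-KO replicate 3) and with sex as a covariate (-0.0767), for Klf2 without Nae1T-KO replicate 3 (-0.00251, up to 0.84 without replicate 1), and for Cxcr4 under total-count scaling (0.0207) and without Nae1T-KO replicate 1 (0.126), Nae1WT replicate 1 (0.0977) or Nae1WT replicate 3 (0.0818), against -0.257 without Nae1WT replicate 2. The causes were not tested. Ccr2 and Cxcr4 were not tested under the stricter filter of 5 CPM in 3 libraries. Their 21 to 82 reads per library limit what can be detected.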

Other observations

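Of 41 tested genes for G proteins and motility signalling, limma called 1 higher, 5 lower and 35 neither, with a median log2 fold change of -0.06. The share called in either direction is near the 12.7% of all tested genes. The calls of this list were mostly lower, while over all tested genes 6.53% were higher and 6.18% lower. At an unadjusted p under 0.05 limma had 9 of this list higher and 11 lower. Rhoh, which encodes a GTPase of blood cells that lacks GTP hydrolysis, fell to 566, 623 and 657 normalized counts across the Nae1T-KO replicates, versus 1174, 1195 and 1026 across those of Nae1WT (log2 fold change -0.88, limma adjusted p = 0.000477). Gng2, a G protein gamma subunit, fell to 708, 544 and 534 across the Nae1T-KO replicates, versus 936, 902 and 933 across those of Nae1WT (-0.65, adjusted p = 0.00485). Stk17b, a kinase that restrains T cell receptor signalling, fell by 0.43 on the log2 scale (adjusted p = 0.00310). The other calls were named after their values were seen. Coro1a, which encodes an actin regulator needed for T cell migration, had -0.35 (adjusted p = 0.0300), Rap1a, which encodes a GTPase that activates integrins, had -0.40 (adjusted p = 0.0119), and Was, which encodes the actin regulator WASP, had 0.35 (adjusted p = 0.00781).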
